A study of Homo sapiens with 23 samples.

Results

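The MYC locus on human chromosome 8 (band 8q24) was examined for histone propionylation (pr), butyrylation (bu) and acetylation (ac) in SW480 cells, an established line of colorectal cancer epithelium. The locus was taken as 9 listed genes, MYC, PVT1, CCAT1, CASC8, CASC11, CASC19, PCAT1, PRNCR1 and POU5F1B, of 38899 protein-coding and lncRNA genes annotated, each with 1 kb on both sides. It was also taken as a window of 3.5 Mb, from 126.0 to 129.5 Mb on hg38, cut into 70 of the 61775 bins of 50 kb that make up the genome. The locus was chosen by its butyryl regions, counted relative to the mean of each list and to the inputs, so the comparisons of butyryl with acetyl marks and with inputs are descriptions and carry no test. The data are chromatin immunoprecipitation (ChIP-seq) peak lists, in which each peak, called a region here, marks a stretch where pulled-down DNA passed a threshold. They show where signal passed that threshold, not how much signal there was.

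Sodium propionate (NaPr, 10 mM) preceded the mapping of H3K18pr and H4K12pr, and sodium butyrate (NaBu, 1 mM) that of H3K18bu and H4K12bu, each for 12 to 16 h. H3K18ac and H4K12ac were mapped after NaPr, after NaBu and without treatment. Each of the 10 groups had 2 replicate libraries, and each condition had 1 input, sheared chromatin that was not immunoprecipitated. All libraries came from the same cell line, and no source used here says that replicates were separate cultures, so the spread between them may be technical. Propionyl and butyryl marks were not mapped in untreated cells in the lists analysed.

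MYC encodes a transcription factor that drives growth and proliferation, works as a dimer with MAX, and is a target of the Wnt pathway that is active in most colorectal cancers. MYC stands in a large stretch with few protein-coding genes. Enhancers spread over that stretch contact the MYC promoter, and several lncRNAs are transcribed from it. PVT1 lies downstream of MYC and is often gained together with it in tumours. CCAT1, CASC8, CASC19, PCAT1 and PRNCR1 are lncRNAs of the upstream side, which carries inherited risk for colorectal and prostate cancer, CASC11 overlaps the MYC start on the opposite strand, and POU5F1B is a retrogene related to the pluripotency factor OCT4. Butyrate is made by gut microbes, feeds acyl groups to histone lysines and also inhibits histone deacetylases.

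The annotation of the listed genes bears on every count that follows. GENCODE 44 held 8 of the 9 names. CCAT1 was taken from RefSeq, at 127207382 to 127219268. MYC lay at 127735434 to 127742951 on the plus strand, PVT1 at 127794526 to 128187101, CASC11 at 127686343 to 127738987, CASC8 at 127289808 to 127482139 and CASC19 at 127072694 to 127227541. PCAT1 spanned 862.7 kb in GENCODE (126556323 to 127419050) but 7.86 kb in RefSeq, and POU5F1B spanned 97.9 kb against 3.78 kb. Of the pairs of listed genes, 9 overlapped. CASC19, PRNCR1 and CCAT1 lay wholly inside PCAT1, so a region there counts for more than 1 gene.

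Lists differed widely in length, from 8158 to 208823 regions in the immunoprecipitated libraries and from 30386 to 93923 in the inputs. A count is therefore given beside its relative density, the regions per base in the window or gene over the regions per base in the same list genome-wide, with 1 as the mean of that list. Relative density moved when lists were cut to the same length. Of 9 colon epithelium markers, 7 had a region at their start in all 4 untreated acetyl libraries, LGR5 in 1 and CDX1 in none. Of 8 markers of other cell types, 5 had none, CD3E had 1 in 1 library, COL1A1 in 3 and GFAP in all 4. Library H3K18ac NaPr replicate 1 stood apart from its own replicate. Of its window regions, 70.9% lay over PVT1, against 39.5% in replicate 2 and 71.1% and 73.0% in the untreated H4K12ac libraries, so results that rest on it are given without it as well. Counts of bins, genes and one-sided regions without it compare its replicate alone with 2 libraries, which raises such counts genome-wide too. The lists of the acetyl libraries labelled NaBu carry a tag that can be read as control in their names. The labels were followed, and every value for acetylation in NaBu rests on them.

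At each histone site, butyryl regions were denser in the window than acetyl regions of the same cells, relative to their lists, although the numbers of regions overlapped. H3K18bu had 107 and 227 regions in the window and H4K12bu 82 and 64. H3K18ac in NaBu had 243 and 176, and H4K12ac in NaBu 228 and 59. Relative to each list, this came to a density of 4.28 and 8.90 for H3K18bu and of 7.50 and 6.92 for H4K12bu. The acetyl libraries of the same cells came to 1.84 and 2.57 (H3K18ac) and 2.27 and 4.46 (H4K12ac). At each histone site both butyryl libraries lay above both acetyl libraries, but the lowest H3K18bu library lay below the highest H4K12ac library. The group means were 6.59 ± 3.27 (SD, n = 2) for H3K18bu against 2.21 ± 0.518 for H3K18ac, and 7.21 ± 0.411 for H4K12bu against 3.36 ± 1.55 for H4K12ac. On the log2 scale butyryl exceeded acetyl density by 1.504 (2.84-fold) for H3K18 and by 1.18 (2.27-fold) for H4K12.

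Inputs were themselves above their list mean in the window. The NaBu input had a density of 2.38 (110 regions), the untreated input 1.54 (53) and the NaPr input 1.22 (130). The butyryl mean was 4.05-fold that of the 3 inputs and 2.81-fold that of the NaBu input, and the lowest butyryl library lay above the highest input. As a share of its list, the window held 0.485% (95% Wilson interval 0.402% to 0.586%) of H3K18bu replicate 1 and 1.01% (0.887% to 1.15%) of replicate 2, and 0.269% (0.224% to 0.325%) of the NaBu input. Such intervals cover counting error only. The H3K18bu replicates thus differed by more than counting error.

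The other marks had lower densities with all regions, and came closer when lists were cut to the same length. Propionyl libraries came to 1.82 and 1.66 (H3K18pr) and to 1.04 and 1.36 (H4K12pr), within or near the range of the inputs. NaPr acetyl libraries came to 1.27 and 1.90 (H3K18ac) and 1.504 and 1.92 (H4K12ac), and untreated ones to 1.19 and 1.25 (H3K18ac) and 1.26 and 1.44 (H4K12ac). With the 8158 regions of highest −log10 p of each immunoprecipitated library, H3K18bu came to 4.98 and 9.41 and H4K12bu to 7.79 and 6.92. H3K18ac in NaBu then came to 2.70 and 3.14, and H4K12ac in NaBu to 4.33 and 4.87. H3K18ac in NaPr came to 1.84 and 4.00, and H4K12ac in NaPr to 4.43 and 4.76. Propionyl libraries rose to between 3.57 and 4.76, and untreated acetyl libraries to between 1.51 and 2.16. The 4 butyryl libraries were then the highest of all, but the lowest of them lay close to the next library (4.98 against 4.87).

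**Figure D1:**
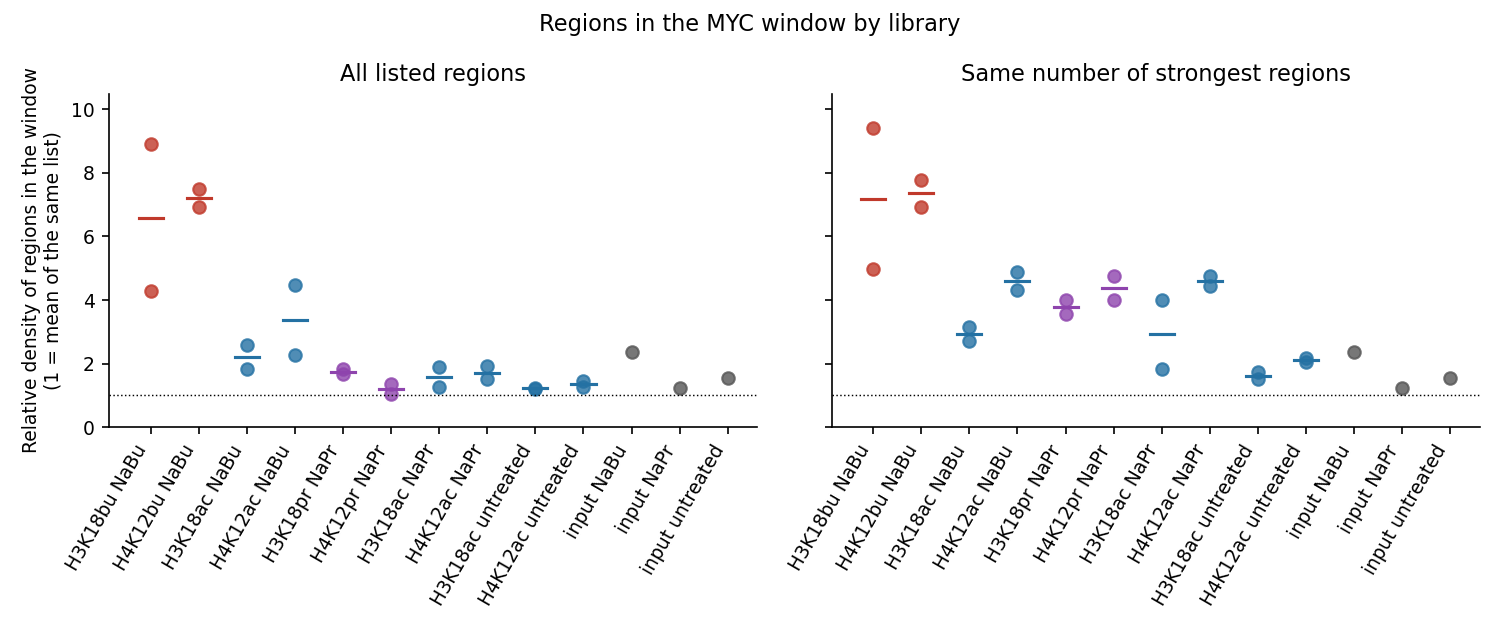
Relative density of regions in the window for each library (points; the y axis is a ratio with 1 as the mean of the same list, bars are means of 2 replicates), with all regions on the left and the 8158 regions of highest −log10 p on the right (inputs as listed in both). Butyryl libraries sit at 4.28 to 8.90 on the left, where 1 H4K12ac NaBu library reaches 4.46, and at 4.98 to 9.41 on the right, where the others, inputs included, sit at 1.22 to 4.87.

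Comparisons that do not involve butyryl lists were tested with a two-sided exact permutation test on log2 relative density, permuting libraries within each histone site. The test has 36 arrangements and cannot give a p below 0.0556. Propionyl and acetyl libraries of NaPr cells differed by −0.18 on the log2 scale (exact permutation p 0.444, adjusted over 3 tests 0.444). The sites had opposite directions, with a difference of 0.16 for H3K18 (libraries overlapping) and of −0.51 for H4K12 (libraries apart), and the propionyl lists belong to a batch of their own by the run tags in the names of the lists. The sign turned with equal numbers of regions, to 0.20, and with covered bp, to 0.16. Without H3K18ac NaPr replicate 1 the difference was −0.32 (exact permutation p 0.111).

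Acetyl regions were denser in the window after treatment than in untreated cells, by amounts at the limit of what the test can show. With NaPr the difference was 0.34 on the log2 scale (1.27-fold, higher in 4 of 4 libraries at their site, exact permutation p 0.0556, adjusted 0.0833), within the same batch. It was 0.35 for H3K18ac and 0.34 for H4K12ac, and 0.49 without H3K18ac NaPr replicate 1 but 0.20 without replicate 2 (exact permutation p 0.111). With equal numbers of regions it was 0.93. With NaBu the difference was 1.04 (2.05-fold, higher in 4 of 4 libraries at their site, exact permutation p 0.0556, adjusted 0.0833). It was 0.84 for H3K18ac and 1.24 for H4K12ac, and 0.98 with equal numbers. NaBu and untreated libraries come from different batches, and the treatment cannot be told apart from the batch.

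Along the window, butyryl regions gathered in a few blocks. The 5 bins with the highest mean butyryl density were 3 adjoining bins in the first part of PVT1, 1 bin with LINC00824, an lncRNA downstream of PVT1, and the bin that holds MYC and most of CASC11. In the first PVT1 bin (127800001 to 127850000), the 18th highest of all 61775, the libraries held 7 and 15 H3K18bu and 13 and 8 H4K12bu regions. That is a relative density of 19.6 and 41.2 for H3K18bu and of 83.3 and 60.6 for H4K12bu, with a mean of 51.2. The acetyl NaBu libraries held 25 and 13 (H3K18ac) and 29 and 7 (H4K12ac) in the same bin, at densities of 13.3, 13.3, 20.2 and 37.02. The inputs held 1 to 4. The next PVT1 bins (127850001 to 127900000 and 127900001 to 127950000) had butyryl means of 47.8 and 41.4. The LINC00824 bin (128550001 to 128600000) had a mean of 36.7 and the MYC bin (127700001 to 127750000) one of 30.6. In the other direction, 30 of the 70 bins had no region in any butyryl library, among them every bin beyond the LINC00824 bin.

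Both butyryl libraries lay above both acetyl libraries and above all 3 inputs in 17 of 52 bins for H3K18, where the genome gave 10.1% of bins, and in 15 of 48 bins for H4K12, where it gave 5.34%. In 11 bins this held at both sites, against 1.98% of bins genome-wide. These counts use the comparison by which the locus was chosen, so nothing is read from them. Acetyl libraries lay above butyryl libraries and the inputs in 0 bins at either site (8.49% and 2.30% genome-wide). Leaving out H3K18bu replicate 1, the library with the lower density, raised the H3K18 count to 34. That count compares the other replicate alone with both acetyl libraries, which raises such counts genome-wide too. It is given without a genome-wide share, so nothing is read from the rise. With equal numbers of regions the counts were 10 (11.3% of bins genome-wide) and 8 (5.40%), with covered bp 17 (7.71%) and 10 (3.62%), and with q under 0.05 they were 12 (10.1%) and 6 (4.01%). Without the condition on the inputs they were 25 (12.4%) and 15 (5.48%).

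Comparisons without butyryl lists can be read against the genome's share. Propionyl libraries lay above acetyl ones in 11 of 59 bins for H3K18 (14.2% genome-wide) and in 4 of 62 for H4K12 (16.2%), and below them in 5 of 59 (11.3%) and 19 of 62 (25.8%). NaPr acetyl libraries lay above untreated ones in 11 of 58 bins for H3K18ac (11.1%) and 25 of 64 for H4K12ac (27.1%). They lay below in 3 (13.3%) and 6 (17.4%). NaBu acetyl libraries lay above untreated ones in 20 of 56 bins for H3K18ac (13.6%) and in 14 of 58 for H4K12ac (7.33%), and below in 7 (16.5%) and 9 (26.0%). The share of bins with denser acetyl regions after treatment was larger in the window than in the genome at both sites, after NaPr and after NaBu, as values with no test. Without H3K18ac NaPr replicate 1, H3K18pr lay above the remaining acetyl library in 11 of 59 bins (22.2% genome-wide) and below it in 20 (34.2%), where 5 had been below with both. That acetyl library lay above the untreated ones in 31 of 56 bins (35.4%), where 11 had been above with both, and below in 3 (22.4%).

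The level of control DNA under these regions was raised too. Fold and p of a summit both follow from its pileup and the local background in the peak caller's model, which allowed these levels to be recovered from the lists. In the window the median local background was 5.27 to 7.88 times the list median in the butyryl libraries and 6.26 to 7.33 times in the acetyl NaBu libraries. It was 4.18 to 4.55 times in propionyl, 3.64 to 4.52 times in acetyl NaPr, 3.97 to 4.18 times in acetyl untreated and 2.90 to 5.63 times in the input lists. The pileup at the summits was 2.33 to 3.17 times the list median in the immunoprecipitated libraries. The median fold in the window was 0.722 to 0.882 of the list median in all 23 libraries, whereas the median −log10 p was 1.00 to 1.73 times the list median in the immunoprecipitated ones.

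This background changed in steps. It was about 0.8 times the list median in the 3 bins centred 210 to 310 kb upstream of the MYC start. These hold the start of CASC8, which is on the minus strand. The background rose to 8.85 in the bin of MYC. It stayed between 3.95 and 7.25 over the PVT1 bins that follow, fell to 1.39 at 790 kb downstream and returned to 7.05 in the LINC00824 bin. Beyond that bin it lay between 0.794 and 1.23. The densest butyryl bins were thus bins of raised background in every kind of library, inputs included. Copy number was not measured, and the part of the raised background in the butyryl densities was not tested. In a grouping of bins chosen after the data were seen, and in a window chosen by its butyryl density, 12 window bins had a background of at least 3 times the list median in the untreated H4K12ac lists, with a median butyryl density of 20.9. The 19 such bins elsewhere in the genome had a median of 7.36, and the 14437 bins below 1.5 one of 0.686. Nothing is read from this difference.

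As a plain share of its length, not scaled to the lists, MYC was covered least by butyryl regions at each histone site. Regions covered 39.8% and 33.3% of MYC with its flanks in H3K18bu and 11.8% and 8.75% in H4K12bu. H3K18ac of the same cells covered 81.9% and 76.5%, and H4K12ac 31.7% and 18.1%, so that at both sites butyryl coverage lay below acetyl coverage in every library. Propionyl regions covered 94.99% and 96.8% (H3K18pr) and 93.5% and 88.5% (H4K12pr). In NaPr cells H3K18ac covered 64.3% and 92.9% and H4K12ac 40.9% and 25.8%. Untreated H3K18ac covered 97.5% and 82.5%, and untreated H4K12ac 54.6% and 56.2%. For H4K12 these percentages of the propionyl and acetyl libraries of NaPr cells did not overlap. Scaled to the share of the genome that each list covers, they did (25.2 and 33.5 against 28.1 and 20.9). The inputs covered 0%, 0% and 4.41%. Coverage scaled to the share of the genome that each list covers gave another order in NaBu cells. It was 123.3 and 103.2 for H3K18bu against 54.5 and 80.4 for H3K18ac. For H4K12bu it was 106.0 and 97.2 against 40.1 and 123.7 for H4K12ac, so those groups overlapped. The relative density also gave the opposite order at H3K18. The butyryl lists, which are short, held 8, 6, 3 and 3 regions over MYC. The density was 117.7 and 86.5 for H3K18bu and 101.0 and 119.3 for H4K12bu, against 8.36 and 37.6 for H3K18ac and, for H4K12ac, 21.96 and 111.1 in NaBu cells. The highest acetyl value belonged to the shortest acetyl list, and the H4K12 groups overlapped. Propionyl libraries had 2, 3, 3 and 4 regions over MYC, but wide ones, 1 of them of 6836 bp over most of the gene in H3K18pr replicate 1.

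At the MYC start, all 20 immunoprecipitated libraries had a region within 1 kb, and 1 of the 3 inputs did. The strongest such region had a fold of 42.4 and 23.05 in H3K18pr and of 14.5 and 7.87 in H4K12pr. It had 4.24 and 4.10 in H3K18bu, 2.35 and 2.43 in H4K12bu, 7.92 and 7.66 in H3K18ac NaBu, and 5.32 and 4.15 in H4K12ac NaBu. Folds depend on each library's own control, so they are better read as ranks within a list. By fold the MYC start stood at the 99.3 and 99.1 percentile of H3K18pr and the 99.3 and 95.8 percentile of H4K12pr. It stood at the 73.0 and 69.7 percentile of H3K18bu, and at the 1.38 and 2.55 percentile of H4K12bu. By −log10 p, which grows with the level of signal as well as with its ratio to background, H4K12bu stood at the 88.7 and 94.0 percentile and the other immunoprecipitated libraries at 96.5 or above. Relative to the MYC start, the H4K12bu summits lay at −1031 and −972 bp and that of H3K18bu replicate 2 at −994 bp, upstream of the gene, but that of H3K18bu replicate 1 lay 1391 bp after the start. In acetylation of the same cells the summits lay 1357 and 259 bp after the start (H4K12ac) and at −469 and 1555 bp (H3K18ac). These places depend on the 1 kb limit, so no shift between marks is read from them. Over MYC with its flanks, the strongest H4K12bu replicate 1 region had its summit inside the gene, at 127736790 (fold 3.12, 33.6 percentile). That of H4K12bu replicate 2 stayed upstream, at 127734462. That of H3K18bu replicate 2 lay beyond the gene, at 127743409 (fold 4.49).

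**Figure D2:**
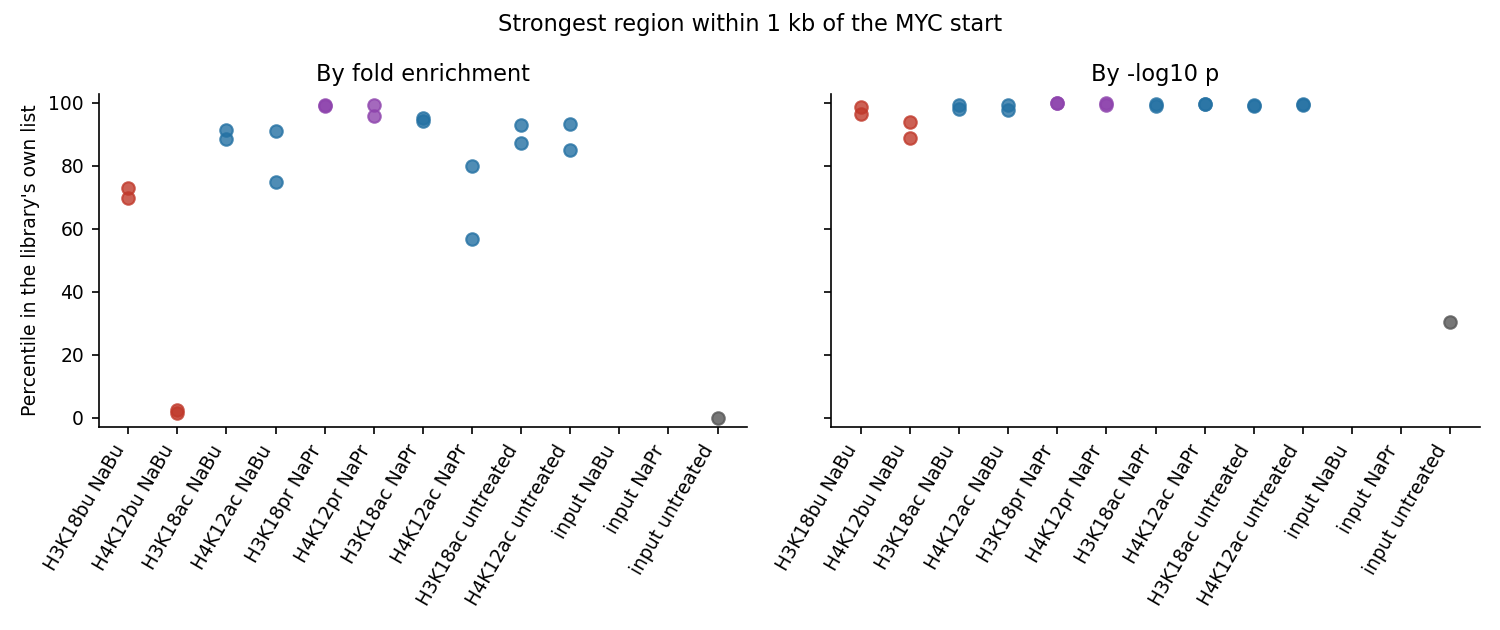
Percentile of the strongest region within 1 kb of the MYC start in each library's own list, by fold (left) and by −log10 p (right); points are libraries, and inputs without a region have none. Propionyl libraries rank at 95.8 or above by fold and H4K12bu at 1.38 and 2.55, while by −log10 p all immunoprecipitated libraries rank at 88.7 or above.

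PVT1 held more regions than any other listed gene in each immunoprecipitated library. It makes up 11.3% of the window, and 34.8% to 57.3% of butyryl, 45.0% to 67.7% of propionyl and 39.5% to 73.0% of acetyl NaPr and untreated regions of the window lay over it (42.4% to 51.9% of acetyl NaBu), against 8.46% to 19.1% of input regions. H3K18bu had 38 and 79 regions there, and H4K12bu 47 and 32, at relative densities of 13.5, 27.5, 38.2 and 30.7. Acetyl NaBu libraries had 126 and 86 (H3K18ac) and 107 and 25 (H4K12ac), at 8.47, 11.2, 9.45 and 16.8. Propionyl libraries had 101, 81, 132 and 126, at 8.40, 6.61, 6.24 and 8.05. The plain share of PVT1 covered, not scaled to the lists, had another order than density. Butyryl regions covered 5.23% and 9.40% of PVT1 (H3K18bu) and 4.53% and 2.56% (H4K12bu), while propionyl regions covered 31.7% and 23.6% (H3K18pr) and 45.1% and 39.5% (H4K12pr). Among NaPr libraries, both H4K12pr libraries lay above both H4K12ac libraries (17.2% and 15.9%), which for H3K18 did not hold (28.5% and 16.3% for H3K18ac).

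CASC11 shares 3.55 kb with MYC. Butyryl libraries had 6, 8, 3 and 3 regions over it, acetyl NaBu libraries 6, 10, 9 and 4, and its strongest region was the one at the MYC start in all propionyl libraries. The relative densities over CASC11 were 15.4, 20.1, 17.6 and 20.8 for butyryl and 2.91, 9.37, 5.74 and 19.4 for acetyl NaBu libraries. At H4K12 those groups overlapped. CASC8 had 8 and 12 H3K18bu regions and 3 and 4 of H4K12bu, at densities of 5.76, 8.48, 4.94 and 7.79, against 1.09 to 2.72 in the acetyl NaBu libraries. The NaBu input had 12 regions over CASC8, a density of 4.67, close to that of the lowest butyryl library.

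PCAT1 in its long GENCODE form held 26 and 59 regions of H3K18bu and 15 and 12 of H4K12bu, at densities of 4.21, 9.37, 5.56 and 5.25. The acetyl NaBu libraries had 41, 31, 37 and 13 regions, at 1.26 to 3.97, and the NaBu input 32, at 2.80. The RefSeq body of PCAT1 held no region in any immunoprecipitated library and 1 in the NaBu input, so the PCAT1 counts belong to the long annotated span and not to that body. CASC19 likewise had 4 and 13 H3K18bu regions in GENCODE but none in its RefSeq body.

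The remaining genes upstream rested on few regions. PRNCR1 had 3 regions in H3K18bu replicate 2 and none in the other 3 butyryl libraries or in any acetyl NaBu or untreated library. The NaPr input had 5 regions over PRNCR1, more than any immunoprecipitated library. CCAT1 had 3 and 2 in H3K18bu and none in H4K12bu, 3 and 3 in H3K18pr, and 0 or 1 in the acetyl NaBu libraries. POU5F1B, over its GENCODE span of 97.9 kb, had 1 and 7 in H3K18bu and none in H4K12bu, and its inputs had 1, 4 and 4. The strongest H3K18bu regions there had summits at 127388417 and 127387323, outside its RefSeq body (127413447 to 127417224). For PRNCR1 and POU5F1B the butyryl counts thus came mainly from H3K18bu replicate 2, and the differences from acetylation were not larger than the spread between the H3K18bu replicates.

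**Figure D3:**
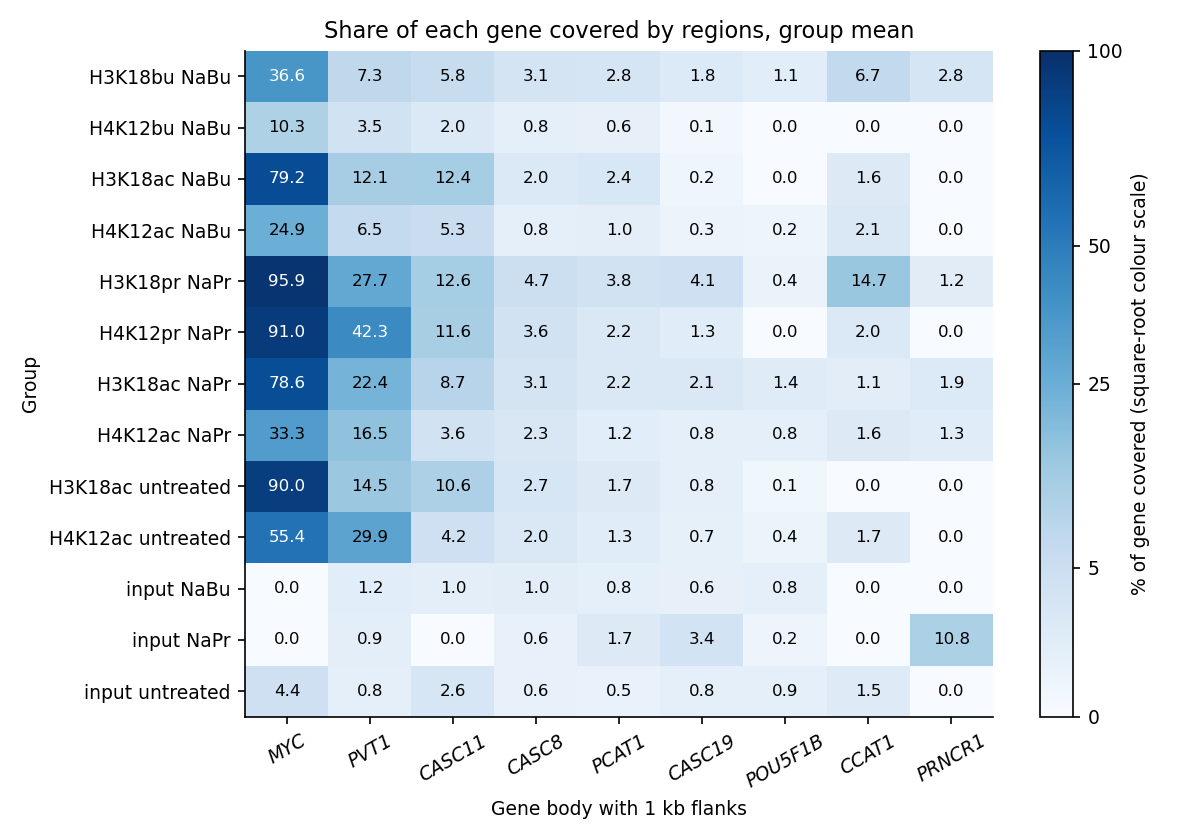
Percentage of each listed gene with 1 kb flanks that regions cover, as the mean of 2 replicates for each group or the value of the single input (numbers in the cells; colour on a square-root scale). MYC is covered to 95.9% and 91.0% by the propionyl marks and to 36.6% and 10.3% by the butyryl marks, and PVT1 is highest in H4K12pr at 42.3%. The percentages are not scaled to the share of the genome that each list covers.

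Counted gene by gene, both H3K18bu libraries lay above both H3K18ac libraries and the inputs in relative density for 6 of 8 listed genes (MYC, PVT1, CASC8, CASC11, CASC19 and PCAT1), against 11.6% of all genes tested. For H4K12 this held for 3 of the 7 genes with a region in any of the libraries (PVT1, CASC8 and PCAT1), against 7.92% of all genes. Without the inputs the counts were 7 (14.7%) and 3 (8.48%), and acetyl libraries lay above butyryl ones for 0 genes at either site (31.4% and 8.58%, or 14.2% and 4.40% with the inputs below as well). The rule used this contrast, so nothing is read from these counts. In comparisons without butyryl lists, the H4K12ac libraries of NaPr cells lay above the H4K12pr libraries for 7 of the 8 genes, all but PVT1 (16.9% of all genes), and for H3K18 this held for MYC alone (13.2%). These calls concern the number of regions relative to the lists. For MYC, CASC8, CASC11, CASC19 and PCAT1 both H4K12pr libraries covered more of the gene than both H4K12ac libraries of NaPr cells. PRNCR1 and POU5F1B had no H4K12pr region. The H4K12pr lists also cover more of the genome (3.71% and 2.64% against 1.45% and 1.24%). Scaled to that share, coverage of these genes was higher in both H4K12pr libraries for CASC11 alone. It was lower in both for CASC8 and CASC19, and the libraries overlapped for MYC and PCAT1. Without H3K18ac NaPr replicate 1, the H3K18 call held for 5 genes, MYC, CASC8, CASC19, PCAT1 and POU5F1B (31.7% of all genes). No listed gene had denser propionyl regions at either site (14.6% and 31.5% of all genes), nor at H3K18 without that library (26.0%). Acetylation was higher with NaPr than without for PVT1, CASC19 and POU5F1B at H3K18 (11.6%) and for CASC8, CASC19, PCAT1, PRNCR1 and POU5F1B at H4K12 (16.3%). Without H3K18ac NaPr replicate 1 the H3K18 call held for 6 genes, all but MYC and CASC11 (29.7%), with 0 in the opposite direction (33.2%). With NaBu it was higher for 3 of 7 at H3K18, PVT1, CASC8 and PCAT1 (17.7%), and for 5 of 7 at H4K12, these and MYC and CASC11 (11.6%). No listed gene had lower density with NaPr (17.8% of all genes at H3K18 and 35.5% at H4K12) or with NaBu (19.7% and 35.8%). Several of these genes share the same regions, so their counts are not independent.

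Of 19 further genes that overlap the window, 3 of 13 tested had higher H3K18bu and 7 of 14 higher H4K12bu density than acetyl libraries and inputs, against 11.6% and 7.92% of all genes. The 3 called at H3K18, LINC02964, LINC00824 and the unnamed lncRNA ENSG00000286266, were also called at H4K12. As for the listed genes, nothing is read from these counts. The protein-coding gene LRATD2 had 2 and 0 regions in H3K18bu and 3 and 1 in H4K12bu. Among 12 genes of the MAX network, which pair with MAX or its relative MLX and include repressors that oppose MYC, butyryl was called higher for 1 of 11 tested at H3K18 (MXD1) and for 2 of 8 at H4K12 (MXD1 and MNT), and acetyl for 2 of 11 (MGA and MLXIP) and 0 of 8. Without the condition on the inputs acetyl was higher for 3 of 11 (also MXI1) and 1 of 8 (MXD3). Of all genes, acetyl was higher for 14.2% and 4.40% with the inputs below and for 31.4% and 8.58% without that condition. Butyryl was higher for 11.6% and 7.92% with the inputs below. Nothing is read from the MAX network counts either. MNT, a repressor that binds MAX, had 4, 1, 2 and 1 butyryl regions against 11, 11, 6 and 1 acetyl NaBu regions.

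The strongest butyryl regions of the window were not found in butyryl lists alone. Of the regions held by both H3K18bu replicates, the one with the highest lower fold lay in an intron of PCAT1 and of an unnamed lncRNA, at 126841654 to 126843318 (fold 8.30 and 11.2). In H3K18ac of NaBu cells its fold was 7.97 and 10.7. By fold within its own list it stood at the 97.6 and 98.5 percentile in H3K18bu. In H3K18ac it stood at the 91.5 and 94.7 percentile. The region was chosen by its H3K18bu fold, so nothing is read from that order. In H4K12bu it stood at the 55.0 and 54.6 percentile, and in H4K12ac of NaBu cells at the 72.3 and 89.7 percentile. This region was present in 8 of 8 NaBu libraries, butyryl and acetyl alike, in 0 of the 12 propionyl, acetyl NaPr and untreated libraries and in none of the inputs. A second region of this kind lay in an intron of LINC00861 (126093004 to 126094524), present in 8 of 8 NaBu libraries and in 1 of the other 12. All NaBu libraries share a batch, from which the treatment cannot be told apart.

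The next H3K18bu regions were shared by every mark. A region of 5263 bp in a PCAT1 intron (127034508 to 127039770, fold 7.26 and 12.2) and one in an intron of LINC00824 (128553016 to 128556100, 6.38 and 8.61) were present in all 20 immunoprecipitated libraries and in no input. Their acetyl NaBu folds at H3K18 were 10.4 and 10.7, and 9.40 and 9.73. Both were also the leading places of H4K12bu, with folds of 4.50 and 4.27 at PCAT1 and of 4.51 and 4.26 at LINC00824. A region in a PVT1 intron (128175909 to 128178132) had folds of 4.52 and 7.76 in H3K18bu, and regions there reached 12.8 to 75.6 in the propionyl libraries, at the 98.7 percentile or above of each list. It also met a region of 1 input.

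Few regions were held by both butyryl replicates and neither acetyl replicate of the same histone site in NaBu cells. There were 3 for H3K18 in the window, of 270 in the genome, and 27 for acetyl alone, of 18318. For H4K12 there were 2 of 134 and 7 of 2729. One-sided regions made up 0.195% of the H3K18 union and 0.143% of the H4K12 union genome-wide for butyryl, and 0.763% and 0.758% of the unions in the window. For acetyl they made up 13.2% and 2.91% genome-wide and 6.87% and 2.65% in the window. With so few butyryl regions this can be read only as values. The 3 H3K18 regions had folds of 1.91 to 3.11 and lay in intergenic DNA at 126375656 to 126376227, in an intron of an unnamed lncRNA at 127617870 to 127618401 and in a PVT1 intron at 127868065 to 127868572. The H4K12 regions lay in introns of PVT1 (127967627 to 127967862, over an input region) and of CASC8 and PCAT1 (127295035 to 127295822). The last one was in every one of the 12 libraries from other conditions, with propionyl folds of 14.5 to 54.6. It was also in both H3K18ac NaBu libraries (fold 3.29 and 3.06). Likewise, the PVT1 region of H3K18 was in both H4K12ac NaBu libraries (fold 3.27 and 2.60). These regions thus lacked acetyl regions of their own site only. The acetyl one-sided regions for H3K18 lay mostly over PVT1, 19 of 27.

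In the comparisons without butyryl lists, propionyl marks held 20 (H3K18) and 21 (H4K12) one-sided regions in the window, which is 4.58% and 5.11% of the window's unions against 1.87% and 7.05% genome-wide. Acetyl marks of NaPr cells held 12 and 13 against propionyl, 2.75% and 3.16% against 2.86% and 2.39%. NaBu acetyl libraries held 34 (H3K18ac) and 8 (H4K12ac) against untreated ones, 8.63% and 1.66% of the unions against 2.82% and 0.285% genome-wide. Untreated libraries held 13 and 81 in turn, 3.30% and 16.8% against 5.81% and 16.9%. NaPr acetyl libraries held 16 and 11 (3.59% and 1.99% against 1.63% and 1.53%), and untreated ones 4 and 38 (0.897% and 6.88% against 1.65% and 9.43%). Without H3K18ac NaPr replicate 1 the H3K18 counts were 32 for propionyl and 89 for acetyl, 9.38% and 26.1% of the window's union against 5.69% and 25.9% genome-wide. Against untreated libraries they were 105 for NaPr and 8 for untreated, 32.5% and 2.48% against 21.6% and 7.52%. Acetyl regions found only with NaBu thus made up a larger share in the window than in the genome at both sites, as values with no test. With NaPr this held for H3K18ac. For H4K12ac with NaPr the 11 regions gave a share near that of the genome (1.99% against 1.53%). The window held 0.157% of such regions (95% interval 0.0876% to 0.281%) and 0.120% of the union. With equal numbers of regions the NaBu counts became 9 and 13 and the NaPr counts 0 and 5. These counts are given without genome-wide shares. The larger share is therefore stated for the full lists only, and H3K18ac had no region found only with NaPr in that setting.

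Butyryl regions of the window often met acetyl regions of the same cells. For H3K18bu, 88.8% of replicate 1 but 48.0% of replicate 2 met an H3K18ac region of NaBu cells, against 91.1% and 75.0% of the whole lists. For H4K12bu the shares were 72.0% and 78.1% in the window and 83.1% and 73.9% in the lists. With untreated acetyl lists of the same site, 60.7% and 32.2% of H3K18bu and 78.05% and 71.9% of H4K12bu regions in the window were shared. With any input, 12.5% to 14.1% were shared, against 13.4% to 14.6% in the whole lists. H3K18bu replicate 2 thus had both the highest window density and the lowest share of window regions that met acetylation in NaBu cells.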

How the data were processed

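Peak lists of 20 ChIP-seq libraries (10 groups of 2) and 3 inputs from SW480 cells were analysed, with groups taken from the sample labels. Per the labels and the study's methods, the authors used an ENCODE-type pipeline, aligned reads to hg38 with Bowtie2 (2.3.1, after bcl2fastq 2.17.1 and cutadapt 1.8.1) and called peaks on each library with MACS2 (2.1.0). The deposited fold enrichment is a ratio of pileup to local background, and the deposited −log10 p-values and −log10 q-values come from the same caller. The largest p in any list was 0.01. Read depth is not part of the lists, and only regions were compared. Folds of different lists, each with its own control, are set side by side as values only.

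All 2187390 regions lay inside the hg38 chromosome lengths and none overlapped another of its list. Regions were assigned to bins by their summit and to genes by any overlap with the body (GENCODE 44; CCAT1 from RefSeq) and 1 kb flanks. One-sided regions were those of a union of 4 lists that overlapped, by at least 1 bp, a peak in each replicate of a group but none in the opposite group. Local background was solved from fold and p under the Poisson model of the caller, with a tolerance of 0.02 in −log10 p, for regions with −log10 p up to 100. At least 98.1% of window regions were solved in every list, and list medians rest on 5000 sampled regions. The permutation test, relative density and solver were tested on simulated data. Named bins and regions were the 5 with the highest mean butyryl density, the 5 with the highest lower fold of 2 replicates at each histone site, and the one-sided ones. P-values were adjusted by Benjamini-Hochberg over 3 tests. Alternatives were covered bp, q under 0.05, equal numbers of regions, regions over input peaks left out, other windows, bin sizes, flanks and overlap rules, a replicate block, and leaving out each library. Python 3.11.15 with numpy 2.4.6, pandas 2.3.3 and scipy 1.17.1 was used.

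Run tags in the names of the deposited lists, which are not part of the labels, gave the batches: propionyl libraries with the NaPr input, NaPr and untreated acetyl libraries with the untreated input, and all NaBu libraries. The members, lists and alternatives were chosen with earlier results of these data known.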

Additional observations from a re-analysis of the deposited data

How the results depend on the processing

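The density comparisons kept their direction in all alternatives except propionyl against acetyl in NaPr, which turned to 0.16 (log2) with covered bp and to 0.20 with equal numbers of regions. Without single libraries it ranged from −0.32 to −0.03, NaPr against untreated acetyl from 0.20 to 0.49, NaBu against untreated acetyl from 0.80 to 1.28 and butyryl against acetyl from 1.08 to 1.61. With the replicate block the differences were the same (−0.18, 0.34 and 1.04) with exact permutation p of 0.5, 0.125 and 0.125, where 0.125 is the smallest it allows. Deviations of same-numbered replicates correlated at −0.11 to 0.0809. Such values from region counts cannot tell whether same-numbered libraries came from the same culture, so the replicate block is given as an alternative only. Bins with butyryl above acetyl and inputs were 28 (H3K18) with 25 kb bins, 11 and 9 (H3K18, H4K12) with 100 kb bins, 10 and 8 with equal numbers and 6 (H4K12) with q under 0.05. Without single libraries they ranged from 17 to 34 (34 without H3K18bu replicate 1) and from 16 to 19. Leaving out a library can raise such counts genome-wide too, and these are given without genome-wide shares. The counts with 25 kb and 100 kb bins also stand without genome-wide shares. They rest on other numbers of bins, so nothing is read from them. One-sided counts depended most on the setting. They are given here without genome-wide shares, so they do not set the window against the genome. In the order butyryl, acetyl (NaBu), propionyl, acetyl (NaPr), NaPr, untreated, NaBu, untreated, H3K18 counts with equal numbers were 7, 2, 4, 0, 0, 1, 9 and 3, and H4K12 counts 7, 4, 7, 2, 5, 2, 13 and 4. Held by either replicate they were 124, 158, 131, 191, 232, 94, 167 and 139 (H3K18) and 34, 162, 107, 184, 178, 198, 98 and 280 (H4K12). With q under 0.05, those that moved for H3K18 were butyryl 1, untreated against NaPr 2 and NaBu 21, and for H4K12 butyryl 0, acetyl in NaBu 4, acetyl against propionyl 5, NaPr 6 and NaBu 1. With sharing set at 50% of the shorter region, H4K12 propionyl had 32 and untreated H3K18ac against NaPr 2. The cause of these shifts was not tested, apart from fewer regions entering with equal numbers and q under 0.05. Without H3K18ac NaPr replicate 1, H3K18 one-sided counts were 32 (propionyl), 89 (acetyl against propionyl), 105 (NaPr) and 8 (untreated against NaPr). That setting for bins, genes and one-sided regions, RefSeq bodies and bins grouped by background were alternatives chosen after seeing the data. Lists carry no read depth, and the exact permutation test used cannot give a p below 0.0556.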
